A study of Homo sapiens with 12 samples.

Results

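The 45 genes described here carry cells through mitosis. They code for the kinases that start it, the checkpoint that delays it, the centromere and kinetochore, the spindle and the proteins that divide the cell. They are a fixed list matched by symbol to the platform annotation, and 45 of 45 were measured among 18852 genes. Where a gene had several probes, the brightest by its average on the 12 arrays was read. RNA came from HepG2, an established human hepatocellular carcinoma line that divides in culture, and was hybridised to Illumina HumanHT-12 arrays. The high glucose group held 6 arrays of cells given 25 mM glucose. The low glucose group held 6 arrays of cells labelled as given 2.7 mM glucose, where the study's array methods state 0 mM. Cells of both groups had been held for 16 h in 2.7 mM glucose with serum and then stayed 8 h in the test medium. The study set up this contrast to follow genes controlled by ChREBP, a transcription factor activated by glucose.

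Mitosis begins when CDK1, bound to its cyclins, is switched on by CDC25 phosphatases. Kinetochores then tie the chromosomes to the spindle, and unattached kinetochores keep the spindle checkpoint active, which holds back the anaphase-promoting complex, a ubiquitin ligase. Once that complex is active it marks securin and the cyclins for destruction, the sister chromatids part and the cell divides. Many of these genes are transcribed mainly in G2 and M, so their transcripts are abundant in dividing cells and scarce in quiescent hepatocytes. In a bulk extract, more cells in G2 and M cannot be told apart from more RNA in each such cell.

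Of the 45 mitosis genes, 42 rose in high glucose at an adjusted p below 0.05 by limma, 0 fell and 3 did not pass the test. Over all genes, 16.6% were called higher and 13.3% lower by the same test. The members were brighter than most genes. Of the 45, 0 had a mean intensity under 100, against 37.6% of all genes, and the median of these means was 1960 against 146. Shares and spreads over all genes given here include the dim genes, so they are no baseline of like intensity. The median log2 change of the 45 genes was 0.59, a 1.5-fold difference, against a median of 0.01 over all genes. At least 1.5-fold rises were found for 23 of the 45, where 2.72% of all genes had one, and at least 2-fold rises for 3 of the 45, where 0.366% of all genes had one. All 6 high glucose arrays lay above all 6 low glucose arrays for 37 of the 45 genes, a pattern shown by 10.2% of all genes. The 8 genes whose groups overlapped were BUB1B, ANLN, CKS2, CDK1 and CKS1B, which were called higher, and CENPF, CENPN and NUF2, which were not called. No member was lower even at an unadjusted p below 0.05, by limma or by a Cyber-T style test (variances pooled over genes of like intensity), and that test also called 0 lower after adjustment.

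**Figure D1:**
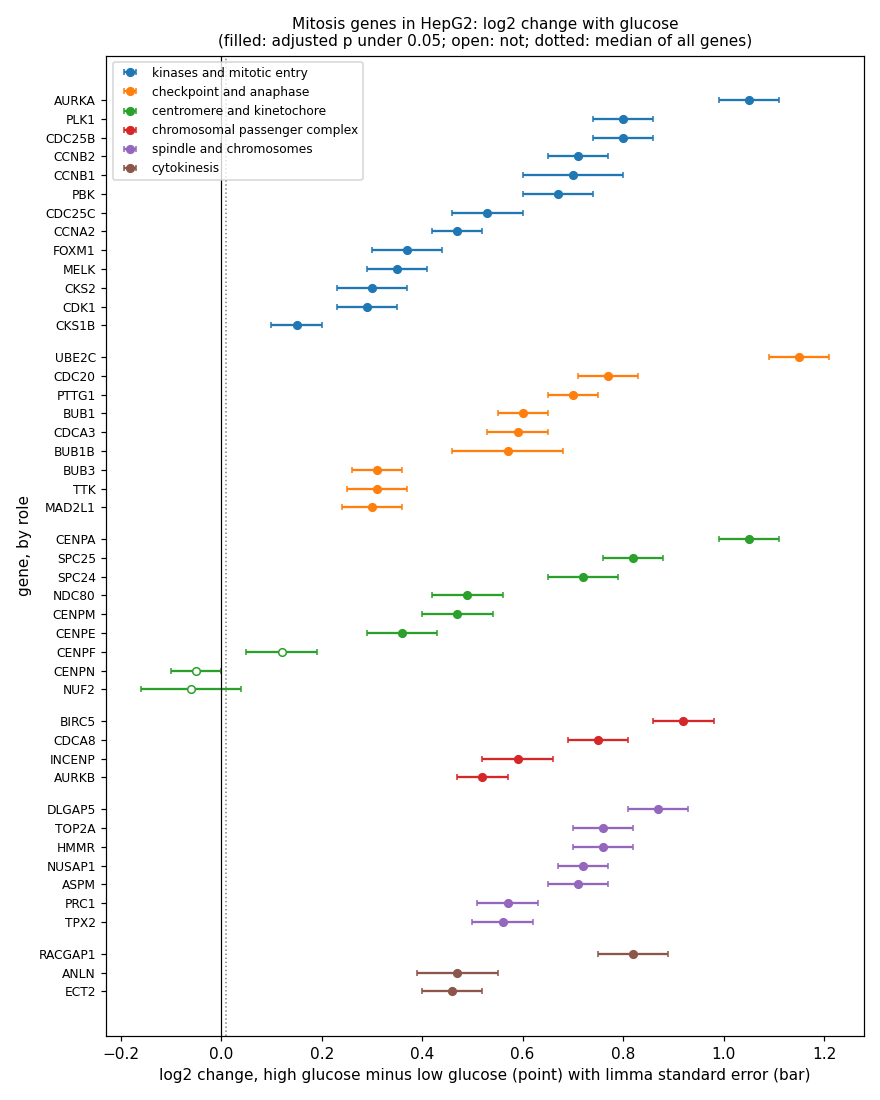
Log2 change (x axis, high glucose minus low glucose) of the 45 mitosis genes (y axis, grouped by role), with the limma standard error as bars and n = 6 arrays a group. Filled points passed an adjusted p of 0.05; the 3 open points are CENPF, CENPN and NUF2, and the dotted line marks the median of all genes at 0.01.

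Replicate arrays of a group correlated at 0.994 to 0.9966 over all genes, and arrays of different groups at 0.9845 to 0.988. The study calls the replicates biological, but the sources used here do not say which cultures shared a day or a passage, so p-values measure the spread between these arrays. Hepatocyte markers were bright, with 9 of 9 measured genes above an intensity of 200. The summed level of those 9 was 122417 to 140654 on high glucose arrays and 122153 to 133299 on low glucose arrays, with 1 gene called higher (FGB) and 1 lower (APOB). Sums over 7 fibroblast markers were 924 to 1056 in high and 1091 to 1366 in low glucose, with PDGFRB alone called, as lower. The 5 endothelial markers summed to 533 to 571 in high and 509.6 to 688 in low glucose, with VWF called higher. The 5 leukocyte markers summed to 17278 to 19347 in high and 15229.9 to 18719.7 in low glucose, with CD14 and LYZ called higher and CD68 lower. LYZ, CD68 and CD14 had mean intensities of 11662, 5276 and 383, while PTPRC (89.4) and CD3E (86.8) lay close to the median intensity of all probes, 90.81. Of the 4 cholangiocyte markers, which summed to 13595 to 15369.9 in high and 12560.5 to 14607 in low glucose, SOX9 was called higher. The part of these markers in the results was not tested.

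The kinases and regulators of mitotic entry formed the largest role group, and 13 of its 13 genes rose, with a median log2 change of 0.53. AURKA, the kinase of centrosomes and spindle poles, ranged from 7623 to 8836 with a median of 7999 on the high glucose arrays, against 3529 to 4261 with a median of 3898 on the low glucose arrays. The groups were far apart, and the 2.08-fold rise (log2 1.05 ± 0.06, SE) placed AURKA at position 51 of all genes ordered by change. PLK1, a kinase needed from mitotic entry to cytokinesis, ranged from 1656 to 2119 (median 1989) in high glucose and from 1009 to 1187 (median 1139) in low glucose. Its rise was 1.74-fold (log2 0.80 ± 0.06, SE), with no overlap between groups.

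CDK1, the kinase that drives entry, had a smaller change than its cyclins and the CDC25 phosphatases. It ranged from 2865 to 3359.7 (median 3249) in high glucose and from 2389 to 3024 (median 2569.8) in low glucose, and 5 of 6 high glucose arrays exceeded every low glucose array. The change was 1.22-fold (log2 0.29 ± 0.06, SE, adjusted p = 2.9e-04, limma). CCNB2, a B-type cyclin that binds CDK1, ranged from 4988 to 5791 (median 5486) in high glucose and from 3107 to 3759 (median 3281) in low glucose, a rise of 0.71 ± 0.06 (log2, SE) without overlap. CCNB1, the main mitotic cyclin, ranged from 759.9 to 1108 (median 985) in high glucose and from 456 to 735 (median 595) in low glucose. Its arrays were scattered, yet the groups did not overlap and the rise was 0.70 ± 0.10 (log2, SE). CCNA2, the cyclin of S phase and G2, rose by a log2 change of 0.47.

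The CDC25 phosphatases, which remove the inhibitory phosphates from CDK1, both rose. CDC25B ranged from 2735 to 3364 (median 3205) in high glucose and from 1698 to 1903 (median 1789) in low glucose, a log2 change of 0.80 ± 0.06 (SE). CDC25C ranged from 825 to 1021 (median 967) in high glucose and from 593 to 706 (median 663) in low glucose, a log2 change of 0.53 ± 0.07 (SE). Neither gene's groups overlapped. FOXM1, a transcription factor of G2 and M genes, ranged from 611 to 736 (median 658) in high glucose and from 444 to 568 (median 522) in low glucose. Its groups lay close but did not overlap, and the change was 1.29-fold (log2 0.37 ± 0.07, SE). PBK and MELK, kinases abundant in dividing cells, rose by log2 changes of 0.67 and 0.35.

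CKS1B and CKS2 code for small proteins that bind cyclin-dependent kinases, and both were among the smaller rises. CKS2 ranged from 7617 to 9605 (median 9159.8) in high glucose and from 6322 to 8667 (median 7128) in low glucose, with 4 of 6 high glucose arrays above every low glucose array and a log2 change of 0.30 ± 0.07 (SE). CKS1B ranged from 10493 to 11789.8 (median 10698) in high glucose and from 9158 to 10601 (median 9818) in low glucose. The groups overlapped, and the log2 change of 0.15 ± 0.05 (SE, adjusted p = 0.028, limma) was the weakest call of the 42. Without high glucose replicate 1 or 5, or without low glucose replicate 2, 3 or 5, CKS1B was no longer called, with adjusted p values of 0.059, 0.079, 0.063, 0.077 and 0.058.

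**Figure D2:**
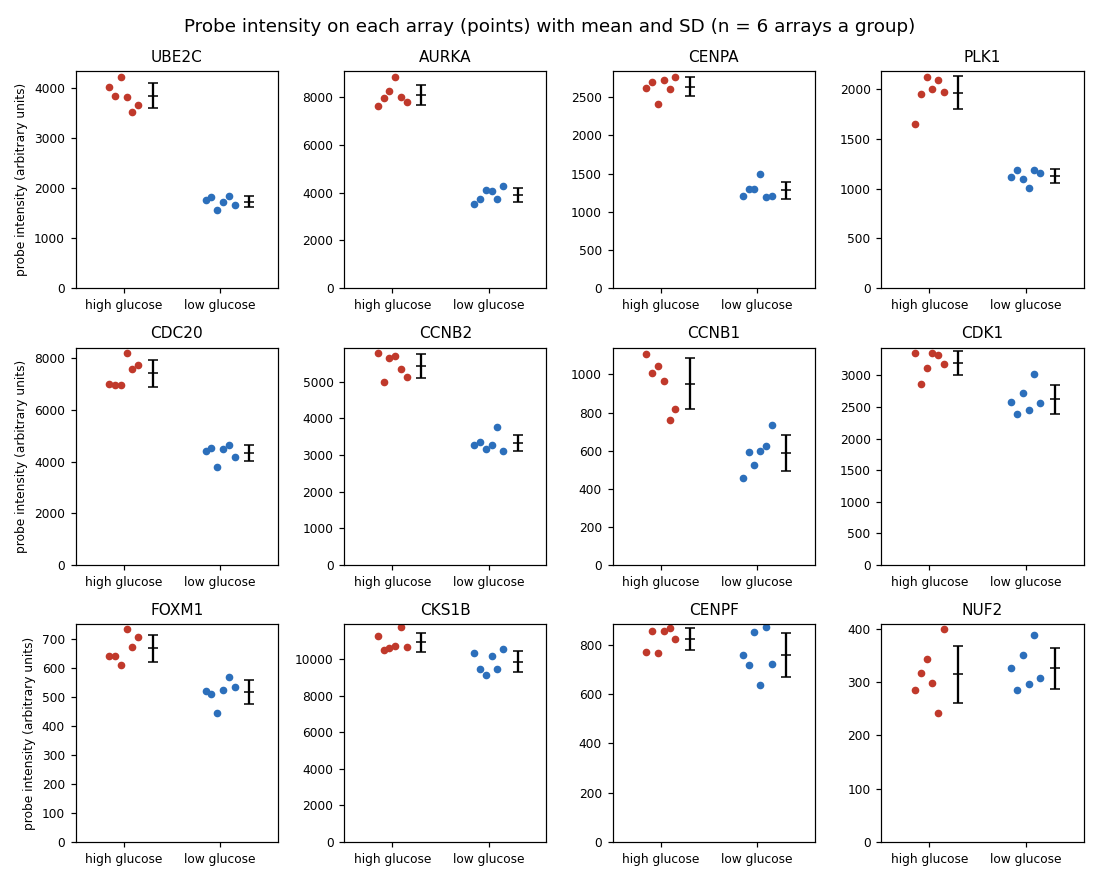
Probe intensity (y axis, arbitrary units, starting at 0) of 12 mitosis genes on each high glucose array (left, red) and each low glucose array (right, blue), with the group mean and SD in black (n = 6 each). For UBE2C, AURKA, CENPA, PLK1, CDC20, CCNB2, CCNB1 and FOXM1 every red point lies above every blue point, whereas CDK1, CKS1B, CENPF and NUF2 overlap.

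Genes of the spindle checkpoint and of anaphase rose in 9 of 9 cases, with a median log2 change of 0.59. By its brightest probe, the member with the greatest change was UBE2C, the E2 enzyme that supplies ubiquitin to the anaphase-promoting complex. It ranged from 3511 to 4203 (median 3822) in high glucose and from 1560.0 to 1839.8 (median 1744) in low glucose. This was a 2.22-fold rise (log2 1.15 ± 0.06, SE) at position 40 of all genes, while the mean of its 2 probes changed by 0.74 (log2), less than AURKA or CENPA under any setting tried. CDC20, the activator of that complex held back by the checkpoint, ranged from 6966 to 8194 (median 7301) in high glucose and from 3789 to 4651 (median 4462) in low glucose. It rose 1.71-fold (log2 0.77 ± 0.06, SE) without overlap. PTTG1, the securin that restrains separase, rose by 0.70 ± 0.05 (log2, SE), although its probes may not be told apart from near-identical PTTG copies.

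Of the checkpoint kinases, BUB1 ranged from 2252 to 2565 (median 2456) in high glucose and from 1498 to 1715 (median 1631) in low glucose, a log2 change of 0.60 ± 0.05 (SE). BUB1B, a subunit of the complex that inhibits CDC20, ranged from 264 to 317 (median 299) in high glucose and from 160.0 to 279 (median 188) in low glucose. This was a dim probe among the members. On 4 of 6 high glucose arrays it exceeded every low glucose array, and the change was 0.57 ± 0.11 (log2, SE). TTK, the kinase at the top of the checkpoint, BUB3, the partner of BUB1 and BUB1B, and MAD2L1, which binds CDC20, rose by log2 changes of 0.31, 0.31 and 0.30. CDCA3, which promotes mitotic entry, rose by 0.59.

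The centromere and kinetochore held the 3 members that were not called. The other 6 of its 9 genes rose, and the median of the 9 was 0.47. CENPA, the histone H3 variant that marks centromeres, ranged from 2415 to 2766 (median 2662) in high glucose and from 1193 to 1491 (median 1248) in low glucose. It rose 2.07-fold (log2 1.05 ± 0.06, SE), at position 52 of all genes. CENPM, a subunit of the inner kinetochore, and CENPE, a kinesin that carries chromosomes to the spindle equator, rose by log2 changes of 0.47 and 0.36.

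NDC80, NUF2, SPC24 and SPC25 form the complex that grips spindle microtubules, and 3 of its 4 genes rose. SPC25 ranged from 1226 to 1419.6 (median 1334) in high glucose and from 689 to 839 (median 737) in low glucose, a log2 change of 0.82 ± 0.06 (SE). SPC24 ranged from 831 to 945 (median 898) in high glucose and from 479 to 591 (median 554) in low glucose, a log2 change of 0.72 ± 0.07 (SE). NDC80 rose by 0.49 ± 0.07 (log2, SE), with 599 to 713 (median 635) in high glucose and 437 to 506 (median 453) in low glucose. The 3 genes had no overlap between groups. NUF2, in contrast, ranged from 243 to 401 (median 308) in high glucose and from 285 to 389 (median 318) in low glucose, with a log2 change of -0.06 ± 0.10 (SE, adjusted p = 0.74, limma). The high glucose arrays of NUF2 spanned the whole range of the low glucose arrays and went past it on both sides.

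CENPF, a large protein of the outer kinetochore, ranged from 765 to 869 (median 839.6) in high glucose and from 635 to 870.4 (median 739) in low glucose, with a log2 change of 0.12 ± 0.07 (SE, adjusted p = 0.23, limma). CENPN, which binds CENPA nucleosomes, ranged from 3765 to 4359.5 (median 4013) in high glucose and from 3844 to 4496 (median 4227) in low glucose, with a log2 change of -0.05 ± 0.05 (SE, adjusted p = 0.59, limma). CENPN was brightly measured and its groups overlapped over most of their range.

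The chromosomal passenger complex corrects faulty attachments and later sits at the midzone, and 4 of its 4 genes rose (median log2 change 0.67). BIRC5, or survivin, ranged from 2827 to 3288 (median 2927) in high glucose and from 1472 to 1790.1 (median 1509.8) in low glucose, a 1.89-fold rise (log2 0.92 ± 0.06, SE). AURKB, the kinase of the complex, ranged from 2651 to 2964 (median 2762) in high glucose and from 1716 to 2031 (median 1997) in low glucose, a 1.44-fold rise (log2 0.52 ± 0.05, SE). Neither gene's groups overlapped. CDCA8, or borealin, and INCENP, the scaffold, rose by log2 changes of 0.75 and 0.59.

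Spindle and chromosome genes rose in 7 of 7 cases without overlap, with the highest median of the role groups, 0.72. DLGAP5, a spindle assembly factor bound to microtubules, ranged from 1630.3 to 1873 (median 1786) in high glucose and from 909.6 to 1105 (median 949) in low glucose, a log2 change of 0.87 ± 0.06 (SE). HMMR, which acts at spindle poles, ranged from 2301 to 2633 (median 2429) in high glucose and from 1267 to 1707 (median 1438) in low glucose, a log2 change of 0.76 ± 0.06 (SE). TOP2A, the topoisomerase that untangles sister chromatids, ranged from 5318 to 6637 (median 6198) in high glucose and from 3217 to 4150.5 (median 3605) in low glucose, also a log2 change of 0.76 ± 0.06 (SE). NUSAP1, ASPM, PRC1 and TPX2, which bind spindle microtubules or their poles, rose by log2 changes of 0.72, 0.71, 0.57 and 0.56.

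Among the cytokinesis genes, 3 of 3 rose. RACGAP1, a subunit of centralspindlin, ranged from 1103 to 1353 (median 1204) in high glucose and from 595 to 777 (median 693) in low glucose, a log2 change of 0.82 ± 0.07 (SE) without overlap. ANLN, the scaffold of the contractile ring, and ECT2, the exchange factor that activates RhoA there, rose by log2 changes of 0.47 and 0.46.

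Paralogs and partners within the mitotic machinery were compared by their ratio on each array, over 6 pairs listed by their relation. The pairs were listed with earlier results of these data known, and the p-values do not allow for that. The change of AURKA exceeded that of AURKB by 0.53 ± 0.05 (log2, SE; p = 0.0022, adjusted p = 0.013, two-sided exact permutation test), and the ratio was higher on 6 of 6 high glucose arrays than on every low glucose array. That p is the smallest the 924 regroupings of the arrays can give. For the other 5 pairs the difference was not past the threshold by the same test. CDC25B minus CDC25C was 0.27 ± 0.10 (log2, SE; adjusted p = 0.065, exact permutation test), and passed only without low glucose replicate 6 (0.32, adjusted p = 0.039).

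The remaining pairs were closer by the exact permutation test. CKS2 minus CKS1B was 0.15 ± 0.09 (log2, SE; adjusted p = 0.23), SPC25 minus SPC24 was 0.10 ± 0.08 (adjusted p = 0.34), BUB1 minus BUB1B was 0.03 ± 0.12 (adjusted p = 0.95) and CCNB2 minus CCNB1 was 0.01 ± 0.13 (adjusted p = 0.95). Another 2 pairs were picked for their unequal values and are described without a test. The change of CCNB2 was greater than that of CDK1 by 0.42 ± 0.05 and that of NDC80 greater than that of NUF2 by 0.55 ± 0.12 (log2, SE). No background was subtracted here, and its part in these ratios was not tested.

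The separation of the groups was also seen in the average over the members. On that average, an array's log2 deviation from the mean of all 12 arrays was 0.25 to 0.32 in high glucose and -0.32 to -0.23 in low glucose. Low glucose replicate 5 lay nearest to the high glucose arrays and held the highest value of its group for 19 of 45 genes, and 41 members were called higher without it. The median SD within groups was 0.101 (log2) for the members and 0.127 for all genes, with 0.0623 for TTK at the low end and 0.222 for CCNB1 at the high end, where BUB1B varied as widely.

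Other probes of the same genes, which the choice of the brightest probe had set aside, gave a check on 21 members. Of 26 such probes, 19 were called higher, 0 lower and 7 were not called, with a median log2 change of 0.35, where 13.9% of all 28098 named probes were called higher. AURKA, CENPA, HMMR and PTTG1 had other probes with log2 changes of 1.01, 1.02, 0.74 and 0.71, close to their brightest probes. The other probes of SPC25 and INCENP, with mean intensities of 164 and 110.1, were called higher but moved less. Their log2 changes were 0.53 against 0.82 for SPC25 and 0.30 against 0.59 for INCENP. For BIRC5 the dimmer probe moved more, by 1.13 (log2), with 396 to 467 in high glucose and 181 to 238 in low glucose.

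The 7 probes without a call belonged to 5 genes. NUF2 had 2 of them, with log2 changes of 0.04 and -0.18, so none of its 3 probes was called. The NUF2 probe at 0.04 had a mean intensity of 167. That at -0.18 had 77.4, below the median intensity of the arrays. BUB3 had 2, with changes of 0.21 and 0.09, beside another that rose by 0.33. The BUB3 probe at 0.09 was also dim, with a mean intensity of 82.4. The other probe of CKS1B changed by 0.15 (adjusted p = 0.066, limma), that of MAD2L1 by 0.03 and that of RACGAP1 by 0.06. As the mean of its probes MAD2L1 was not called (adjusted p = 0.13, limma). The RACGAP1 probe read 73.5 to 86.9 in high glucose and 71.7 to 87.4 in low glucose, below the median intensity of the arrays. The dim probe of UBE2C read 128 to 177 in high glucose and 104 to 121 in low glucose and rose by only 0.33. No background was subtracted here, and its part in the changes of dim probes was not tested.

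**Figure D3:**
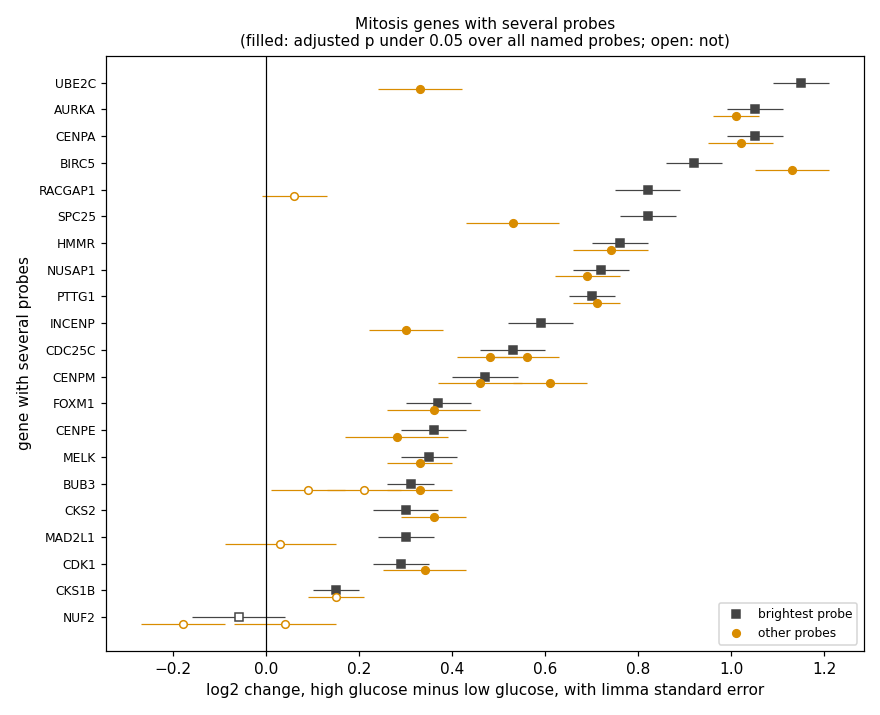
Log2 change (x axis, high glucose minus low glucose, with limma standard error) of every probe of the 21 mitosis genes with several probes (y axis). Squares are the brightest probes and circles the 26 others; filled symbols passed an adjusted p of 0.05 over all named probes, and NUF2 has no filled symbol.

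Promoter sequences were set beside these values because promoters of G2 and M genes often share a pair of elements. The cell cycle genes homology region, or CHR (letters TTTGAA or TTCGAA), is bound by the DREAM and MYBL2-MuvB complexes, and CCAAT boxes are bound by NF-Y. RefSeq promoter windows of 250 bases before an annotated start (GRCh38.p14) held 35 of the 45 genes in 45 windows, some of which overlap where starts lie close together. UBE2C, AURKA, PBK, TPX2, FOXM1, RACGAP1, BUB3, CENPM, TTK and BIRC5 are named only.

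The runs below give the last 120 bases before the start on the gene's strand, with matches to the CHR and to CCAAT in capitals. Matches on the other strand are capitals too and show the reverse complement of the letters. The first 6 belong to the strongest rises that have a CHR match in this stretch. CCNB2 and CDK1 follow as a cyclin and kinase that bind each other and changed unequally, and the last 3 are the genes that were not called.
CENPA (chr2:26785936-26786055, plus strand): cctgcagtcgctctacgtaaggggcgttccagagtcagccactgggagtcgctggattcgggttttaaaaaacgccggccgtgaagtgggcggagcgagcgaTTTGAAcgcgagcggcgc
DLGAP5 (chr14:55191586-55191705, minus strand): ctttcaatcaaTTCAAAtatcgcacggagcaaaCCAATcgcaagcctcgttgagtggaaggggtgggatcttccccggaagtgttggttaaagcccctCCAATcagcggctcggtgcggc
CDC25B (chr20:3796190-3796309, plus strand): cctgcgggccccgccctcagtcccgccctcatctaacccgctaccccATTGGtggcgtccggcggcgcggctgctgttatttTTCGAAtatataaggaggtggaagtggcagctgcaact
PLK1 (chr16:23678769-23678888, plus strand): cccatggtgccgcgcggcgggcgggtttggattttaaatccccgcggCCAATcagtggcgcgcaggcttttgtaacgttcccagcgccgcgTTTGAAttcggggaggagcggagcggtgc
CDC20 (chr1:43358861-43358980, plus strand): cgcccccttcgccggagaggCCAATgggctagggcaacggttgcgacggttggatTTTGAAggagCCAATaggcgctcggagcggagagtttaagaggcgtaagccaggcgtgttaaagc
HMMR (chr5:163460512-163460631, plus strand): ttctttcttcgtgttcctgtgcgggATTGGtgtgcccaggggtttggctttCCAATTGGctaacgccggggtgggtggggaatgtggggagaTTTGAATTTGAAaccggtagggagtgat
CCNB2 (chr15:59105026-59105145, plus strand): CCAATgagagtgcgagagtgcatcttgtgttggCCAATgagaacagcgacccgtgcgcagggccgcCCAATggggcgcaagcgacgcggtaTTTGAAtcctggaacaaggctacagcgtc
CDK1 (chr10:60778358-60778477, plus strand): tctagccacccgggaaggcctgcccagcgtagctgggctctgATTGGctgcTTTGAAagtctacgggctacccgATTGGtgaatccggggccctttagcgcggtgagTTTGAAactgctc
CENPF (chr1:214603075-214603194, plus strand): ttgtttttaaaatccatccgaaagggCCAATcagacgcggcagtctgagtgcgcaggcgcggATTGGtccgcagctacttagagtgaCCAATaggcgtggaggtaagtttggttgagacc
CENPN (chr16:81007094-81007213, plus strand): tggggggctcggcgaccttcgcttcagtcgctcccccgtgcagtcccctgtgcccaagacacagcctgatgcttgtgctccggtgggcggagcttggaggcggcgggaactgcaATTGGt
NUF2 (chr1:163321834-163321953, plus strand): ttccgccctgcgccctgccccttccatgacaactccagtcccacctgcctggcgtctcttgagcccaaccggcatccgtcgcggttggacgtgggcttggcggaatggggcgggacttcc

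PLK1 and CCNB2 each have a CHR that begins 29 bases before the start, with a CCAAT box 73 bases before it in PLK1 and others 120, 87 and 54 bases before it in CCNB2. In CDC25B, which has 4 annotated starts, the third start has a CHR at 38 bases and a CCAAT box at 73 bases. HMMR has CHR letters at 28 and 22 bases, back to back, and CENPA has them at 18 bases. CDK1 has CHR letters at 69 and 13 bases before the start shown, though it rose less than the 7 genes printed before it. CENPF has 3 CCAAT boxes and no CHR letters, CENPN has 1 CCAAT box, and NUF2 has neither in its window.

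CHR letters were found in 22 of 45 member windows (48.9%) and in 14.3% of all 35116 windows of that length. CCAAT, on either strand, was found in 75.6% of member windows and in 32% of all windows, and at least 2 CCAAT in 48.9% and in 9.53%. Both elements stood together in 42.2% of member windows and in 5.05% of all windows. E2F letters (TTCCCGC or TTGGCGC) were found in 22.2% and in 7.81%, and CACGTG, an E-box that forms part of the ChREBP element, in 13.3% and in 6.34%. The CHR letters began within 40 bases of the start in 14 of the 22 windows, a share that was not computed over all windows.

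The 20 genes with CHR letters had a median log2 change of 0.71, with a range of 0.15 to 1.05, against a median of 0.49 and a range of -0.06 to 0.72 for the 15 genes without them. The ranges overlap widely, no test was run, and CKS1B, CKS2 and CDK1, with small rises, are among those with the letters. The 10 genes without a window are in neither group, and their changes ran from 0.31 (BUB3 and TTK) to 1.15 (UBE2C). Among them AURKA (1.05), BIRC5 (0.92) and RACGAP1 (0.82) also exceeded 0.72, so the upper ends of the ranges depend on which genes had a window. A match describes the letters in the window only.

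**Figure D4:**
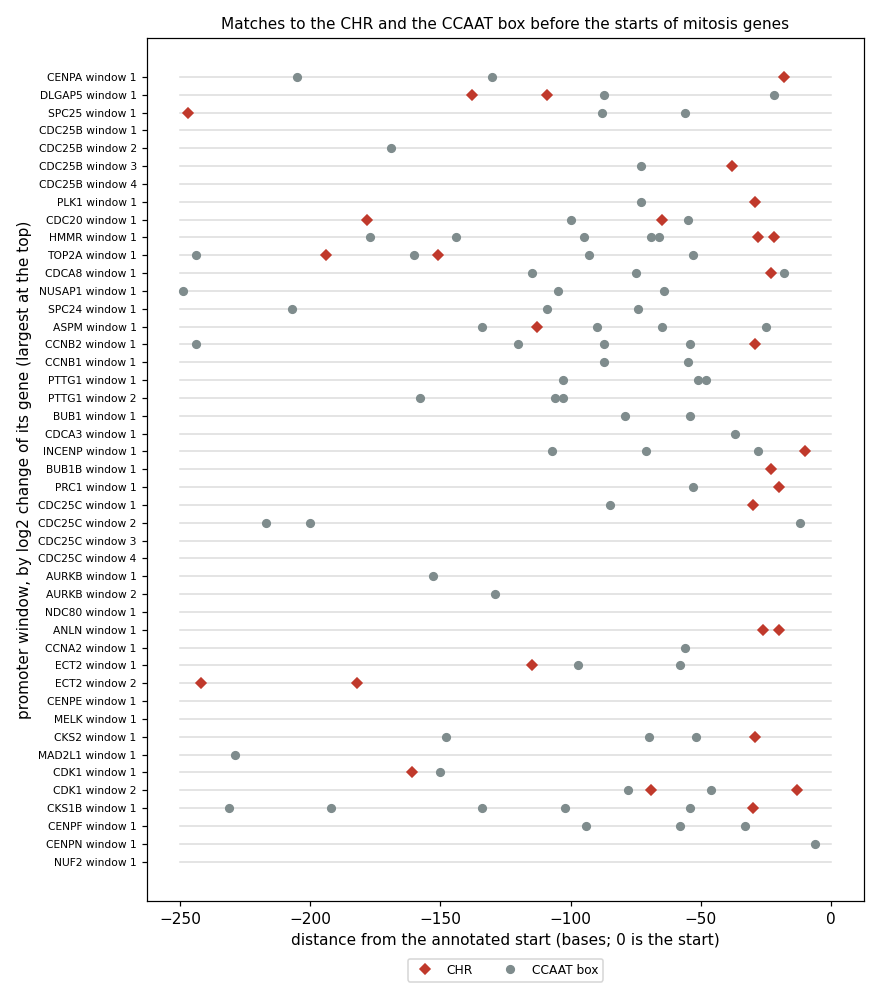
Positions of letter matches to the CHR (red diamonds) and to the CCAAT box (grey circles) in the 250 bases before each annotated start (x axis, bases from the start), for 45 windows of 35 mitosis genes ordered by the log2 change of their gene (y axis, greatest at the top). CHR matches fall in 22 windows, 14 of them within 40 bases of the start, and the bottom 3 windows, of CENPF, CENPN and NUF2, have none.

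Genes that work with the 45 but are not among them were read from lists by function. The mitotic kinesins, motors of the spindle, came closest to the 45 in their values, with 9 of 10 measured genes higher, 0 lower and a median log2 change of 0.60. KIF20A, which brings the passenger complex to the midzone, rose by 1.23, and KIFC1, KIF11 and KIF23 by 0.85, 0.71 and 0.63. In the list for spindle, centrosome and midbody, 12 of 20 were higher and 1 lower (HAUS4, -0.23), with FAM83D (1.03), TACC3 (1.02), GTSE1 (0.85) and CKAP2 (0.66) changed most. As the mean of its probes CKAP5 was called lower (-0.24, adjusted p = 9.4e-04, limma). HAUS1 was called higher without high glucose replicate 3 (0.22, adjusted p = 0.028, limma). The higher call of HAUS2 (0.21, adjusted p = 0.04, limma) was lost in several fits without an array. These left out high glucose replicate 2, 4, 5 or 6 or low glucose replicate 1, 4 or 6 (adjusted p of 0.055 to 0.13).

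Calls were mixed among the regulators and structural partners. Of 10 genes that control CDK1 at mitotic entry, 8 were higher and 2 lower, with a median of 0.30. Among the higher, BORA (0.20, adjusted p = 0.026, limma) lost its call in several fits without an array. These left out high glucose replicate 1, 2 or 4 or low glucose replicate 1 or 3 (adjusted p of 0.052 to 0.084). NEK2, a centrosome kinase, rose by 0.74, CDC25A by 0.64 and FBXO5, an inhibitor of the anaphase-promoting complex, by 0.47. The 2 that fell were WEE1, the kinase that inhibits CDK1 (log2 change -0.71 ± 0.09, SE), and PPP2R2A, a phosphatase subunit (-0.31). In the anaphase-promoting complex 8 of 15 were higher, CDC23 most (0.51) and then CDC26 (0.43), and 2 were lower, CDC16 (-0.53) and ANAPC10 (-0.40). ANAPC1 was called lower as the mean of its probes (-0.16, adjusted p = 0.011, limma). ANAPC16 (-0.22, adjusted p = 0.061, limma) was called lower in several settings, among them a replicate block (adjusted p = 0.02).

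The inner kinetochore had 9 of 17 higher, led by CENPI (0.86), by OIP5 (0.68) and MIS18A (0.56), which help load CENPA, and by CENPX (0.49). It had 1 lower, CENPH (-0.30, adjusted p = 0.024, limma), a call that was lost without high glucose replicate 5 or 6 or low glucose replicate 1, 5 or 6 (-0.25 to -0.28, adjusted p of 0.055 to 0.077). The outer kinetochore list had 8 of 18 higher, led by SGO2 (0.80), SPDL1 (0.52) and ZWINT (0.51), and 2 lower, MIS12 (-0.40) and PMF1 (-0.24). Among the higher, DSN1 (0.26, adjusted p = 0.043, limma) was no longer called without the variance trend (adjusted p = 0.071). Its call was also lost without high glucose replicate 1, 2, 4, 5 or 6 or low glucose replicate 1, 4 or 5 (adjusted p of 0.061 to 0.14). Condensins had 3 of 8 higher, NCAPG (0.73), NCAPD2 (0.28) and NCAPD3 (0.24), and 0 lower. Cohesin and separase had 2 of 9 higher, CDCA5 (0.35) and ESPL1 (0.25), and 2 lower, STAG2 (-0.30) and STAG1 (-0.20), with a median of 0.01. These shares lie near those of all genes, dim ones included, 16.6% higher and 13.3% lower. Without high glucose replicate 2, 4 cohesin genes were lower, and STAG2 was not called as the mean of its probes (-0.17, adjusted p = 0.13, limma). RAD21 was called lower as the mean of its probes (-0.21, adjusted p = 0.01, limma). PDS5B was called higher without low glucose replicate 5 (0.22, adjusted p = 0.0097, limma).

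Calls among the factors that act on such promoters were about as frequent as among all genes, dim ones included. Of 14 genes of DREAM, MYBL2-MuvB and NF-Y, 2 were higher (TFDP1, 0.62, and RBL1, 0.39) and 3 lower (LIN37, -0.42, RBL2, -0.27, and LIN54, -0.18), with a median of -0.09, beside 16.6% higher and 13.3% lower over all genes. LIN54 was not called without high glucose replicate 2, 4 or 6 or low glucose replicate 2, 3, 4 or 6, and RBL1 was not called as the mean of its probes. MYBL2 changed by 0.11 ± 0.10 (log2, SE; adjusted p = 0.50, limma). The MYBL2 probe was dim, with a median intensity of 126 in high and 118 in low glucose, where the median of all probes was 90.81. MYBL2 was not called with background correction either, and the part of background in the size of its change was not tested further. For comparison with earlier stages of the cycle, 18 of 28 DNA replication genes were higher and 1 lower, with a median of 0.30. PCNA, the sliding clamp, rose by 1.11, FEN1 by 0.88, GINS2 by 0.87 and MCM6 by 0.62. The lower call, PRIM1 (-0.17, adjusted p = 0.036, limma), was lost with a replicate block (adjusted p = 0.052), without the variance trend, and without high glucose replicate 1, 3 or 5 or low glucose replicate 3 or 4 (-0.13 to -0.16, adjusted p of 0.062 to 0.11). Of 12 genes of G1 cyclins, kinases and inhibitors, 6 were higher and 0 lower, with a median of 0.20, led by CCNE1 (0.86), CCND3 (0.64), CCND1 (0.61) and CDK2 (0.50). CDKN1A (-0.19, adjusted p = 0.056, limma) was called lower with a replicate block (adjusted p = 0.023), with array weights, with the filter on dim genes, and without high glucose replicate 3 or low glucose replicate 5 or 6 (adjusted p of 0.0039 to 0.038). As the mean of its probes CDKN1B was called lower (-0.22, adjusted p = 0.03, limma). In the same setting CDKN2D was no longer called higher (0.20, adjusted p = 0.053, limma).

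**Figure D5:**
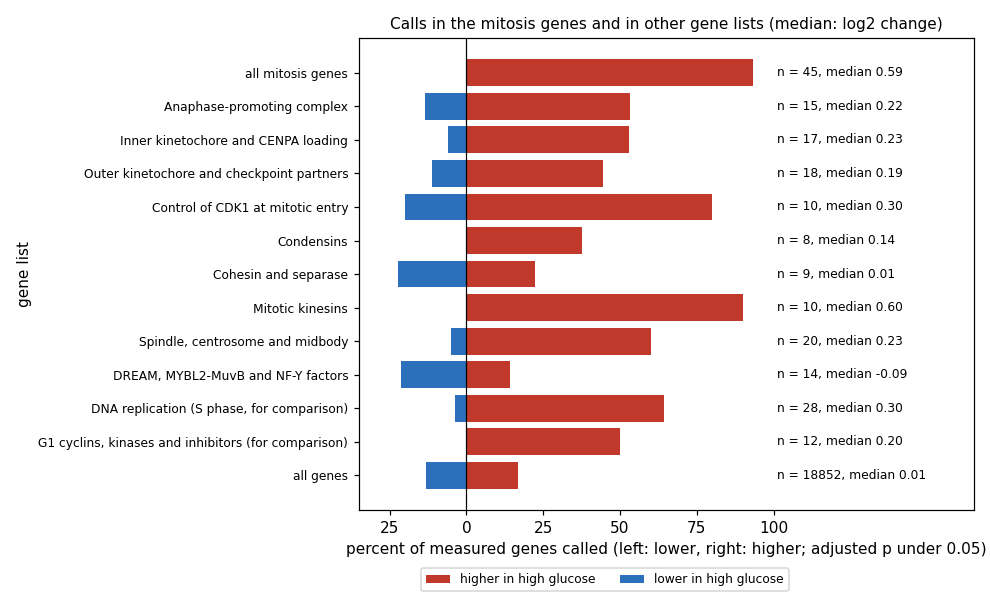
Percent of measured genes called higher (red, to the right) and lower (blue, to the left) in high glucose at an adjusted p of 0.05 (x axis), for the 45 mitosis genes, 11 other gene lists and all genes (y axis), with the number measured and the median log2 change beside each bar. The mitosis genes (42 of 45) and the mitotic kinesins (9 of 10) stand highest, and all genes show 16.6% higher and 13.3% lower.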

How the data were processed

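Linear probe intensities deposited by the authors, quantile normalized across the 12 arrays, were used as given and taken to log2. The submitters' processing notes name GenomeStudio 2010.1, while the study used limma to normalize and tested with both limma and CyberT, at settings its methods leave out. The lowest deposited intensity was 47.15 and the study's methods name no background correction, so the values were taken as not background subtracted. The 24 per-sample columns of another table could not be matched to samples by name and were not used.

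Of 48803 probes, 28098 have 1 gene symbol and were used, giving 18852 genes, each read from its brightest probe. High and low glucose arrays (6 each) entered a linear model in limma 3.58.1 (R 4.3.3) whose moderated variances followed intensity, and p-values were adjusted over every gene by Benjamini-Hochberg, at a 0.05 threshold. Gene pairs were compared with an exact permutation test in Python 3.11.15, adjusted over 6 pairs, and the fits across genes were checked on simulated data. The number of arrays limits the precision, and 37.6% of genes had a mean intensity under 100, near background. Promoter windows came from RefSeq (GRCh38.p14), without protein sequences.

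The members, lists and tests were chosen with earlier results of these data known. Values in every group are given for the 12 members with the greatest change, members not called, paralog or partner pairs, and PLK1, CDK1, FOXM1 and TOP2A. Partners outside the 45 are named where they are among the 4 greatest changes of a list or are called lower. MYBL2, CDKN1A, CDKN1B, CDKN2D, DSN1, HAUS1, HAUS2, BORA, CKAP5, ANAPC1, ANAPC16, RAD21 and PDS5B were added after their values were seen. CCNB2 and CDK1 promoters and those of the 3 genes not called were chosen after their values were seen. Alternatives changed the log offset (16), the probe rule, the features tested, the test, the trend, array weights, a block on replicate number, a filter on dim genes, background correction, the thresholds and each array left out.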

Additional observations from a re-analysis of the deposited data

Results flagged for a closer look

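In 3 of 90 groups of 6 arrays, an array lay apart from the rest of its group, where chance gives about 1 in 20 groups. PLK1 had its lowest high glucose value, 1656, on replicate 1, while the other 5 high glucose arrays held 1949 to 2119, and all 6 exceeded the low glucose arrays. CENPA had its highest low glucose value, 1491, on replicate 4, where the other arrays of that group reached 1294 at most. BIRC5 had its highest high glucose value, 3288, on replicate 5, against 2827 to 2943 on the other high glucose arrays. These are 3 different arrays, and the causes were not tested.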

How the results depend on the processing

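Under 23 alternatives, 41 or 42 of the 45 mitosis genes were called higher and 0 lower, except that 23 were called higher when a 1.5-fold change was also required, since the other 19 rose less than that. Leaving out each array gave 41 to 42. Apart from the stricter thresholds, 42 of the 45 genes kept their call and direction. The exceptions were CKS1B (adjusted p = 0.072 by limma without the trend), MAD2L1 (log2 change 0.16, adjusted p = 0.13, as the mean of its probes) and NUF2, which was never called but moved between -0.13 and 0.01 as each array was left out, above 0 without high glucose replicate 5. With a replicate block 42 were called. The replicate numbers did not pair the arrays (same-numbered r of -0.0538 to 0.0205), and 1 array correlated best with its own number. Of the gene pairs, whose settings were chosen after seeing the data, AURKA and AURKB stayed past the threshold under 13 of 13 settings. Since the ratios of this pair did not overlap between the groups, leaving out an array could not change that outcome. Leaving out each array moved CCNB2 minus CCNB1 between -0.08 and 0.08 and BUB1 minus BUB1B between -0.05 and 0.10. Signal over background limits the dim probes.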
